A study of Mus musculus with 3 samples.

Results

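Wnt proteins are secreted, lipid-modified ligands that act mostly on nearby cells. The acyltransferase encoded by Porcn attaches the lipid, without which most Wnt proteins are not released. On the receiving cell a Wnt protein binds a Frizzled, a receptor that crosses the membrane 7 times, and either Lrp5 or Lrp6, which together stabilise beta-catenin, or it acts through Ror1, Ror2 or Ryk in routes that do not need beta-catenin. Secreted Frizzled-related proteins, encoded by the Sfrp genes, carry a Frizzled-like ligand-binding domain and can hold Wnt proteins away from their receptors. In the embryo, Wnt signalling in the ectoderm is needed for mammary placodes and buds to form.

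The genes described here are the Wnt ligands, the Frizzled receptors, the Sfrp genes and Lrp5, Lrp6, Ror1, Ror2, Ryk and Porcn. They were chosen by gene symbol, not by level, and numbered 38 of the 17097 genes measured: 19 ligand genes, 10 Frizzled genes, 3 Sfrp genes (Sfrp1, Sfrp2 and Sfrp5) and the 6 other genes. Each gene was represented by its probe set with the highest mean, a choice that favours a call for genes with several probe sets.

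The study hybridised 3 Affymetrix arrays, all of 1 group. The cells were CD49fHi Lgr5Hi cells, sorted from digests of epidermis and mammary gland of female Lgr5-IRES-GFP mouse embryos at E14 (embryonic day 14), so every sample carried the reporter at the Lgr5 locus, which marks cells that transcribe this receptor gene of the R-spondins. CD49f is the integrin alpha 6 chain of basal epithelium. For each array all female embryos of a single litter were pooled, no other genotype, stage or cell population was compared, and the series title places the cells in work on p63 and the switch from multipotent to unipotent mammary cells.

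Values are log2 expression per probe set. With no control group, a gene was called above background when its mean over the 3 arrays exceeded a threshold at an adjusted p under 0.05 (limma, one-sided, Benjamini-Hochberg over all 17097 genes). The threshold of an array was the 95th percentile of 76 olfactory and vomeronasal receptor genes on that array, at 6.29, 6.24 and 6.24 on replicates 1, 2 and 3. A stricter threshold, the 95th percentile of 49 genes restricted to unrelated tissues, lay at 7.38, 7.45 and 7.31. By the first rule 8955 genes were called, 52.4% of all genes tested, and by the stricter one 5210, or 30.5%. Of the 49 tissue-restricted genes, 12 (24.5%) were called by the first rule. Only 1 (2.04%) was called by the stricter rule, whose threshold these same genes set. A call at the lower threshold alone is therefore weak evidence of expression. Probe sets differ in how brightly they bind, so the levels of single genes were not ranked against each other, and a median over a list of genes is only a description.

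Replicate 3 stood apart from the other arrays. Its correlation with replicates 1 and 2 over all probe sets was 0.942 and 0.944, against 0.994 between these, and its median was 6.52 against 6.25 and 6.25. Either 813 or 2000 cells were sorted per sample, and it is not stated which array belongs to which number. All 7 basal epithelial markers were called above both thresholds, among them Krt5 at 11.98, 12.31 and 12.17 on replicates 1, 2 and 3, and so were 9 of 10 markers of dermal mesenchyme, among them Col1a1 at 13.10, 13.03 and 12.82. The sorted pools therefore held RNA of mesenchymal genes as well as of basal epithelial genes. The summed log2 level was 72.24, 74.07 and 75.72 for the basal list and 100.60, 99.36 and 99.12 for the mesenchymal list, with Pdgfra the mesenchymal marker not above background. The Wnt genes named below are known from both kinds of cell, and the part of each in their signal was not tested. In such pools, fewer cells of a type and less RNA per cell cannot be told apart. Of 6 measured mammary bud markers, which include Wnt10b, 5 were called (83.3%), against 52.4% of all genes, and Eda2r was not. At the stricter threshold 2 were called (Tbx3 and Lef1, 33.3%), against 30.5% of all genes. Of the other lists, 2 of 6 leukocyte markers, 1 of 5 endothelial and 2 of 5 melanocyte markers were called. So were 1 of 5 skeletal muscle, 1 of 3 neural and 3 of 7 suprabasal markers. Each of these shares was below the 52.4% of all genes. The leukocyte markers called were Cd68 (8.83 ± 0.26, SD, n = 3), a macrophage marker that was also above the stricter threshold, and Fcer1g (7.29 ± 0.46), while Ptprc, the pan-leukocyte marker, lay at 4.03 ± 0.20.

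Of the 38 Wnt ligand, receptor and Sfrp genes, 23 (60.5%) were called above background, against 52.4% of all genes, and 10 were called above the stricter threshold, or 26.3% against 30.5%. The brightest of the 23 antigenomic control probe sets as threshold gave 10 as well, against 31.6% of all genes. Both shares were close to those of all genes. The 10 were the ligand genes Wnt4 and Wnt5a, the receptor genes Fzd1, Fzd2 and Fzd3, the antagonist genes Sfrp1 and Sfrp2, and Lrp5, Lrp6 and Ryk. The median of the 38 genes lay 0.90 above the receptor-gene threshold, and that of all genes 0.62 above it. When replicate 3 was left out, 14 of the 38 exceeded the stricter threshold, or 13 with the same probe set for each gene, against 34.9% of all genes.

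**Figure D1:**
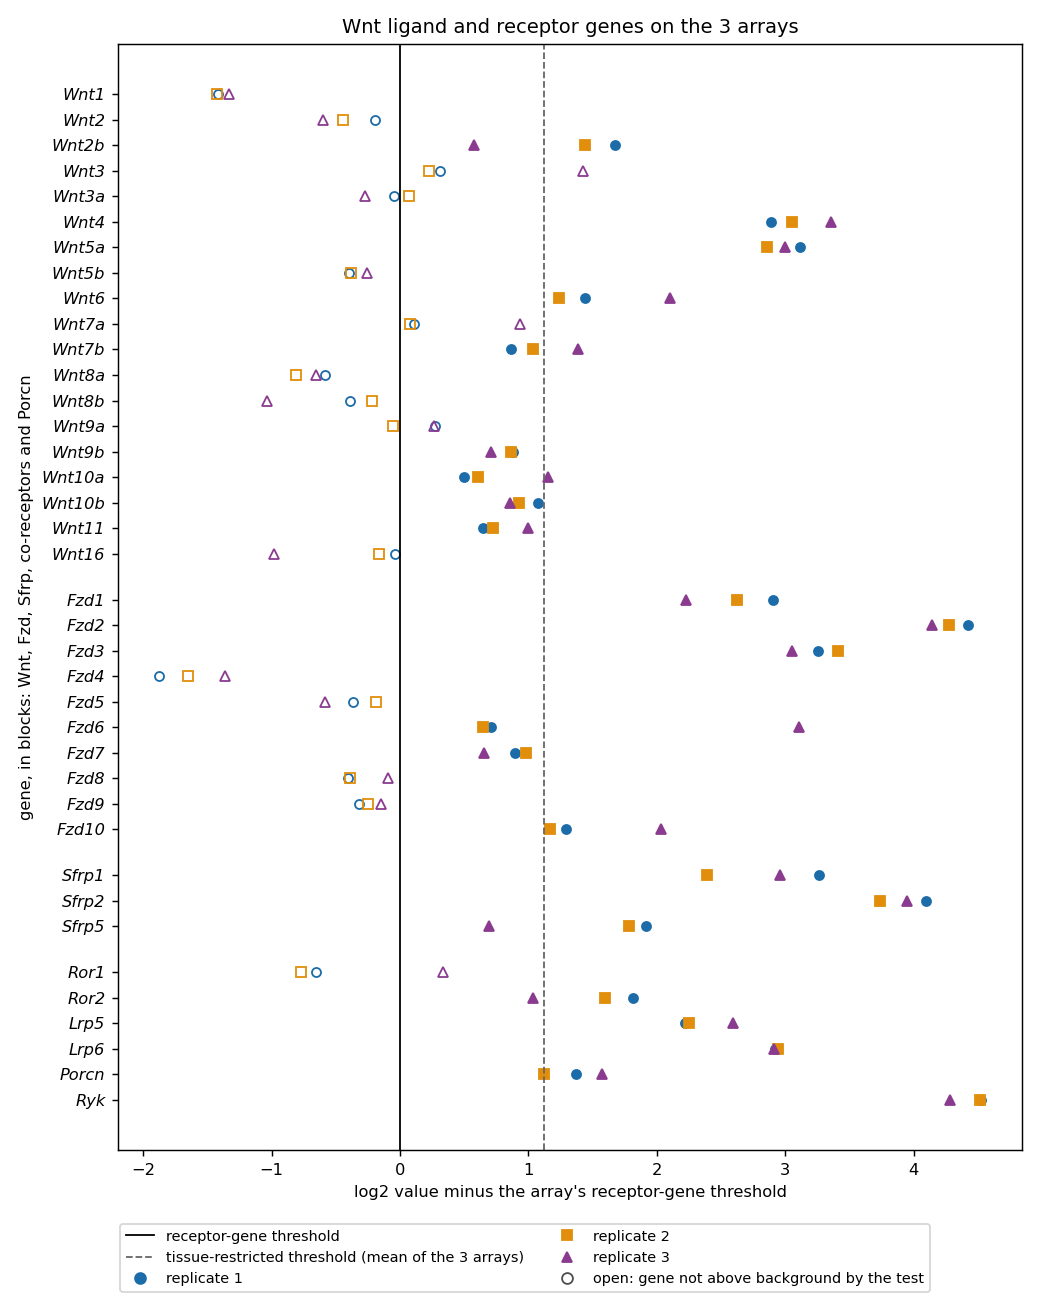
Log2 value minus the receptor-gene threshold of the same array for each of the 38 genes (vertical axis, in blocks by role), with circles, squares and triangles for replicates 1, 2 and 3 and open symbols for genes not called above background. The solid line at 0 is the receptor-gene threshold and the dashed line the stricter one; Fzd6 shows replicate 3 at 9.34 on the log2 scale, far to the right of the other arrays, and Wnt4, Wnt5a, Fzd1 to Fzd3, Sfrp1, Sfrp2, Lrp5, Lrp6 and Ryk lie right of both lines on every array.

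Ligand genes were called in 9 of 19 cases (47.4%), against 52.4% of all genes. Only Wnt4 and Wnt5a of the 19 (10.5%) were called at the stricter threshold, against 30.5% of all genes. Wnt4, which in the adult gland relays progesterone signals and acts in several embryonic organs, measured 9.18, 9.30 and 9.60 (log2) on replicates 1, 2 and 3. All 3 arrays lay far above both thresholds, the mean being 3.10 above the receptor-gene threshold (adjusted p = 3.74e-05). Wnt5a, the best-known ligand of beta-catenin-independent signalling, had 9.41, 9.11 and 9.24, a mean of 2.99 above the threshold (adjusted p = 2.93e-05). Each of these genes had a second probe set, which was also above both thresholds on average, by 1.29 for Wnt4 and 1.73 for Wnt5a over the stricter one.

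Wnt10b, Wnt6 and Wnt10a were called only at the receptor-gene threshold. Wnt10b, an early marker of the mammary line, measured 7.37, 7.17 and 7.10 (log2) on replicates 1, 2 and 3. Its mean of 7.21 ± 0.14 (SD, n = 3) was 0.95 above the receptor-gene threshold (adjusted p = 0.0013) and 0.17 below the stricter one. Wnt6, an ectodermal ligand gene, had 7.73, 7.48 and 8.34, above the stricter threshold on all 3 arrays but without a call there (mean 0.47 above it). Its second probe set lay on average 0.57 below the receptor-gene threshold. Wnt10a, a ligand gene of ectodermal appendages such as teeth and hair, had 6.79, 6.85 and 7.39, and its mean was 0.75 above the receptor-gene threshold (adjusted p = 0.0101). With the 99th percentile of the receptor genes as threshold, Wnt10a was no longer called (adjusted p = 0.0607).

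Wnt10a and Wnt10b are close paralogs and both were called, whereas other pairs were split. Of 11 pairs of closely related members (7 of ligands, and Fzd3 with Fzd6, Fzd5 with Fzd8, Lrp5 with Lrp6, and Ror1 with Ror2), both genes were called in 3, one gene in 5 and neither in 3. Wnt2b was called and Wnt2 was not, Wnt5a was called and Wnt5b was not, Wnt7b was called and Wnt7a was not, and Wnt9b was called and Wnt9a was not. Neither Wnt8a nor Wnt8b was called, nor were Wnt3 and Wnt3a. Such a split compares each gene with the background, not one paralog with the other. With 52.4% of all genes called, each outcome would also arise among unrelated pairs, and such pairs were not counted.

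Wnt2b, a relative of Wnt2, measured 7.97, 7.69 and 6.81 (log2) on replicates 1, 2 and 3, lowest on replicate 3 (adjusted p = 0.0057). Wnt7b, a ligand gene of epithelia such as lung and kidney collecting duct, had 7.16, 7.28 and 7.62 (adjusted p = 0.0016). Wnt9b, which acts in kidney and face, had 7.17, 7.10 and 6.95 (adjusted p = 0.0021). The probe sets of Wnt9b disagreed, since the second lay 0.82 below the threshold on average, and the gene was not called when they were averaged (adjusted p = 0.3500). Wnt11, a ligand gene of beta-catenin-independent signalling in gastrulation, had 6.94, 6.97 and 7.24 (adjusted p = 0.0035). The last 3 genes were under the stricter threshold on average.

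The 10 ligand genes not called included Wnt3, which was close to the threshold. It measured 6.60, 6.47 and 7.66 (log2) on replicates 1, 2 and 3, above the receptor-gene threshold on every array but widely spread (mean 0.65 above, adjusted p = 0.0642). It was called without any 1 of the 3 replicates (adjusted p from 0.0117 to 0.0204). Without replicate 3 its mean was only 0.27 above the threshold, so that call does not mean a stronger signal. It was also called with the mean of each gene's probe sets throughout (adjusted p = 0.0320) and without receptor pseudogenes in the background (adjusted p = 0.0427). Its only probe set is of a type that the manufacturer marks as prone to cross-hybridisation. Wnt7a had 6.41, 6.32 and 7.17 (adjusted p = 0.1343) and Wnt9a 6.56, 6.19 and 6.50 (adjusted p = 0.2513).

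The remaining 7 ligand genes averaged below the threshold. Wnt1, the founding gene of the family, gave 4.88, 4.81 and 4.91 on replicates 1, 2 and 3, below the threshold on every array (mean difference -1.39). Wnt8a and Wnt8b, known mainly from early embryo and brain, had means of 5.57 ± 0.14 and 5.71 ± 0.44 (SD, n = 3). Wnt2, Wnt3a, Wnt5b and Wnt16 had means of 5.84 ± 0.23, 6.17 ± 0.18, 5.91 ± 0.06 and 5.86 ± 0.53. Of these 7, Wnt3a alone exceeded its array's threshold on any array, on replicate 2 (6.31).

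**Figure D2:**
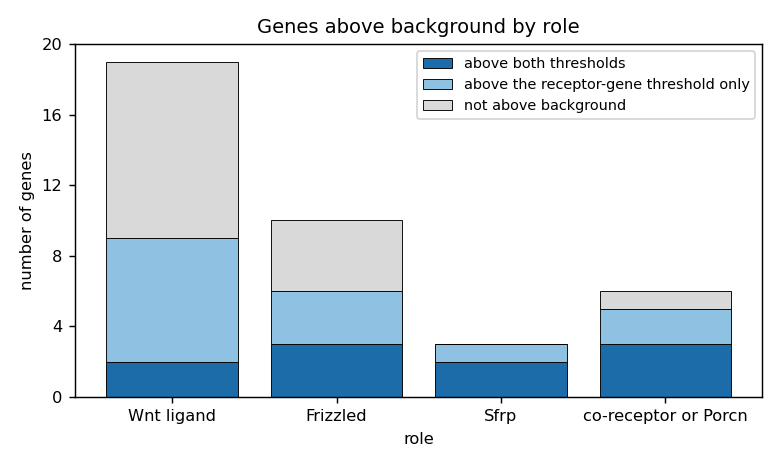
Number of genes (vertical axis) in each role that were above both thresholds, above the receptor-gene threshold only, or not above background. Of the 19 Wnt ligand genes 2 were above both and 7 above the lower threshold only; of the 10 Frizzled genes these numbers were 3 and 3, and of the 3 Sfrp genes 2 and 1.

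Several ligand genes lie next to each other in the mouse genome, which allows a look at neighbours. In the order of protein-coding genes of the RefSeq annotation of GRCm38.p6, 4 pairs of members were adjacent. Wnt6 and Wnt10a were both called, and Wnt3a and Wnt9a were both not called. In the pairs of Wnt9b with Wnt3 and Wnt10b with Wnt1 the first was called and the second was not. With only 4 pairs, and 52.4% of all genes called, these outcomes show no pattern of neighbours. Other adjacent genes were not counted. Wnt4, Wnt6 and Wnt10b were called, and Wnt1 is the uncalled neighbour of Wnt10b only. The 250 bases before the annotated start of these genes are given here as examples, from RefSeq, GRCm38.p6, in the direction of transcription. They lie at chr4:137277385-137277634 (plus strand), chr1:74771642-74771891 (plus strand), chr15:98778151-98778400 (minus strand) and chr15:98789607-98789856 (plus strand). Capitals mark the GC box GGGCGG on either strand, where neighbouring matches may overlap.
Wnt4: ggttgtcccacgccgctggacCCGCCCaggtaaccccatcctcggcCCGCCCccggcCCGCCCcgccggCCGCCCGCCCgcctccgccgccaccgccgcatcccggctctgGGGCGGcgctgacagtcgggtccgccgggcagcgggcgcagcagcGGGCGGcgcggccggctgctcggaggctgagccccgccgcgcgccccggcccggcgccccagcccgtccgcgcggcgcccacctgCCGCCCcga
Wnt6: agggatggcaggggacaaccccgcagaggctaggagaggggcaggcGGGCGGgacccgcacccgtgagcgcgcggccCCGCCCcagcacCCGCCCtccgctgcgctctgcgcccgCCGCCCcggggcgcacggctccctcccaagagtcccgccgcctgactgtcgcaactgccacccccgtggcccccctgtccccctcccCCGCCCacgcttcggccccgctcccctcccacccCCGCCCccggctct
Wnt10b: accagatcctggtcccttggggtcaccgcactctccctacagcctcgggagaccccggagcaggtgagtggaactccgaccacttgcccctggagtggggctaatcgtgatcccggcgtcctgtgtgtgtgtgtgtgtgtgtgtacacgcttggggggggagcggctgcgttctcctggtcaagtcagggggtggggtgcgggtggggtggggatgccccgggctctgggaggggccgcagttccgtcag
Wnt1: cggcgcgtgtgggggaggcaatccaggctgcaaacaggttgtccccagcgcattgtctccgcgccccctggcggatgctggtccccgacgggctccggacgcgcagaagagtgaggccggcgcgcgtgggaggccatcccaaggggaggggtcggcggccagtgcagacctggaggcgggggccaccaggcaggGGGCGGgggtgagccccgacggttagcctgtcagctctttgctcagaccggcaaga

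The Wnt4 window held 8 GC boxes and 85.2% G and C, the Wnt6 window 6 and 79.6%, the Wnt10b window none and 66.8%, and the Wnt1 window 1 and 71.6%. Such GC-rich starts were common among all members with a listed promoter (26 genes, 29 promoters), with a median of 70.8% G and C against 52.4% over all 32851 promoters of that table. GGGCGG occurred in 22 of the 29 windows (75.9%) and in 32.7% of all windows of the same length. The median was 68.8% in promoters of called members (13 genes) and 71.6% in those of uncalled ones (13 genes). GGGCGG occurred in 71.4% of the windows of called members and 80.0% of those of uncalled ones. No promoter was listed for the other members, among them Wnt5a, Fzd2, Fzd3, Sfrp1, Lrp5 and Lrp6. The Tcf/Lef motifs CTTTGAA and CTTTGAT, searched on both strands, occurred in 2 of the 29 windows (6.90%), 1 of Wnt11 and 1 of Wnt5b, and in 7.48% of all windows. A match is a description of letters and not a binding site.

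Frizzled genes were called in 6 of 10 cases (60.0%), against 52.4% of all genes. Fzd1, Fzd2 and Fzd3 (30.0%) were called at the stricter threshold too, against 30.5% of all genes. All 3 genes of the Fzd1, Fzd2 and Fzd7 subfamily, whose products are close in sequence, were above background. Fzd2 measured 10.72, 10.52 and 10.38 (log2) on replicates 1, 2 and 3, a mean of 4.28 above the receptor-gene threshold (adjusted p = 9.81e-06), and its other 2 probe sets averaged 3.75 and 3.24 above it. Fzd1 had 9.20, 8.87 and 8.46 (2.58 above, adjusted p = 1.09e-04), with replicate 3 lowest. Fzd7, which has been studied in mammary stem cells, had 7.19, 7.23 and 6.89 and was called at the lower threshold only (adjusted p = 0.0026).

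Fzd3 and Fzd6, the pair best known for planar cell polarity and for the orientation of hairs and nerve fibres, were both called. Fzd3 measured 9.55, 9.65 and 9.29 (log2) on replicates 1, 2 and 3 (3.24 above the threshold, adjusted p = 2.64e-05). Of its 6 probe sets, 5 averaged above the receptor-gene threshold and 1 lay 0.05 below it. Against the stricter threshold these probe sets averaged 2.12 (the one used), 1.01, -0.04, -0.05, -0.23 and -1.17. Fzd6 had 7.00, 6.89 and 9.34, a call that rested on wide values (1.49 above, SD 1.39, adjusted p = 0.0406) and was lost at the 99th percentile of the receptor genes (adjusted p = 0.0681). Replicate 3 was 2.40 higher than the mean of the others, the largest such difference of the 38 genes. The second probe set of Fzd6 gave 7.77, 7.71 and 7.06, with replicate 3 lowest. Without replicate 3 this second probe set had the higher mean and stood for the gene, at 1.47 above the threshold, whereas the first probe set, kept, lay 0.68 above it and was called as well (adjusted p = 1.21e-04).

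Of the Fzd4, Fzd9 and Fzd10 subfamily, Fzd10 alone was called. Its log2 values were 7.58, 7.41 and 8.27 on replicates 1, 2 and 3 (1.49 above the receptor-gene threshold, adjusted p = 0.0016). Fzd9 had 5.97, 5.99 and 6.09 and Fzd4, the receptor of the ligand Norrin in retinal vessels, 4.42, 4.59 and 4.87. Both lay below the threshold on every array. Fzd5 and Fzd8, another subfamily, had 5.93, 6.06 and 5.65, and 5.89, 5.85 and 6.14, also below it on every array.

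All 3 Sfrp genes were called, against 52.4% of all genes, and these genes encode secreted antagonists often described in mesenchyme. Sfrp2 measured 10.39, 9.99 and 10.19 (log2) on replicates 1, 2 and 3 (3.93 above the receptor-gene threshold, adjusted p = 1.42e-05). Sfrp1 had 9.56, 8.63 and 9.19 (2.87 above, adjusted p = 1.23e-04), lowest on replicate 2. In addition 3 probe sets named both Sfrp1 and Serinc3, and were left out. Sfrp5 had 8.21, 8.03 and 6.93, lowest on replicate 3 by 1.19, and was called at the lower threshold only (adjusted p = 0.0046). By the probe set used, Sfrp1, Sfrp2 and Sfrp5 were highest on replicate 1. So were the called members Wnt2b, Wnt5a, Wnt9b, Wnt10b, Fzd1, Fzd2, Ror2, Lrp6 and Ryk. Another probe set above the receptor-gene threshold was highest on replicate 3 for Sfrp5, Wnt5a, Fzd2 and Ryk. Over all called genes replicate 3 was highest for 63.2%, and the share for replicate 1 was not counted. Of the markers, 7 of the 10 of dermal mesenchyme and none of the 7 of basal epithelium were highest on replicate 1. Which cells gave the Sfrp signal was not tested.

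Among co-receptors, Lrp5, Lrp6 and Ryk were called at both thresholds. Lrp6 measured 9.22, 9.19 and 9.15 (log2) on replicates 1, 2 and 3, the smallest SD of the 38 genes (0.03), and a mean of 2.93 above the receptor-gene threshold (adjusted p = 2.62e-05). Lrp5 had 8.51, 8.50 and 8.83 (2.36 above, adjusted p = 8.44e-05). Ryk, a receptor-like protein that binds Wnt ligands and lacks an active kinase, had 10.82, 10.76 and 10.52 (4.44 above, adjusted p = 8.74e-06). Its second probe set averaged 0.73 above the receptor-gene threshold and 0.39 below the stricter one.

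The receptor tyrosine kinase-like pair was split. Ror2, which binds Wnt5a, measured 8.11, 7.84 and 7.27 (log2) on replicates 1, 2 and 3 (1.48 above the receptor-gene threshold, adjusted p = 0.0011). Ror1 had 5.64, 5.47 and 6.57, above the threshold on replicate 3 alone, and was not called. Porcn had 7.66, 7.36 and 7.81 (1.35 above, adjusted p = 6.28e-04) and was not called at the stricter threshold. Its probe set is of a type that can detect several transcripts of a gene, as are those used for Wnt10b and Ryk.

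Other genes of the pathway, 60 measured of a list of 67, were called in 46 cases (76.7%), against 52.4% of all genes. At the stricter threshold 34 were called (56.7%), against 30.5% of all genes. All 4 genes that act on secreted Wnt proteins or their release were called, among them Wls, the carrier that brings Wnt proteins to the cell surface (9.64 ± 0.23, SD, n = 3), and the Wnt-inactivating enzyme genes Notum (7.02 ± 0.56) and Trabd2b (7.46 ± 0.20). Of the 10 inhibitor genes, most of them for secreted proteins, 5 were called. These included Dkk3 (7.74 ± 0.12), Dkk4 (8.19 ± 0.12) and Sostdc1 (9.06 ± 0.33), an inhibitor gene of Wnt and Bmp signalling. Dkk1 (6.51 ± 0.23) and Dkk2 (6.45 ± 0.32) were not called, though Dkk1 was called without replicate 3 (adjusted p = 0.0171) and without receptor pseudogenes in the background (adjusted p = 0.0272). The call of Notum was lost without replicate 1 (adjusted p = 0.0918) or replicate 2 (adjusted p = 0.0536), as was that of Kremen1 (adjusted p = 0.0677 and 0.0560).

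Of 10 measured accessory receptors, 6 were called (60.0%), close to the 52.4% of all genes. Among these were the Dkk receptor gene Kremen1 (6.93 ± 0.19, SD, n = 3), the Lrp5 and Lrp6 relative Lrp4 (8.65 ± 0.30) and the Wnt-binding pseudokinase gene Ptk7 (9.05 ± 0.51). Musk (4.69 ± 0.25) and Reck (6.52 ± 0.44) were not called. In the R-spondin branch, which keeps Frizzled proteins at the cell surface, 5 of 9 genes were called (55.6%, also close to all genes). The 3 receptor genes Lgr4 (9.04 ± 0.89), Lgr5 (10.27 ± 0.44), whose reporter was used for the sort, and Lgr6 (8.55 ± 0.40) were among these. None of the 4 ligand genes was called, for example Rspo1 (5.80 ± 0.18) and Rspo2 (4.31 ± 0.08).

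Inside the receiving cell, all 11 genes of signal transduction were called, including the 3 Dishevelled genes Dvl1 (7.19 ± 0.31, SD, n = 3), Dvl2 (8.20 ± 0.18) and Dvl3 (8.92 ± 0.17). All 6 measured nuclear genes were called as well, among them Lef1 (9.30 ± 0.46), Tcf7l1 (9.32 ± 0.30) and Tcf7l2 (10.17 ± 0.52). Of 10 planar polarity genes 9 were called, such as Vangl1 (8.81 ± 0.21), Vangl2 (9.20 ± 0.25) and Celsr1 (7.52 ± 0.26), and Celsr3 (6.23 ± 0.18) was not. The list was called more often than all genes, but the shares were not tested against each other.

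Litters were compared as a description, since each was measured on 1 array. Litter, number of cells sorted and cDNA amplification cannot be told apart as sources of a difference between arrays. Of the 38 genes, 5 had a range of at least 1 log2 unit over the arrays (13.2%), against 13.4% of all genes, a share close to it. They were Wnt2b, Wnt3, Fzd6, Sfrp5 and Ror1, and in each of them replicate 3 was the array apart. Without replicate 3 none of the 38 had such a range, against 0.187% of all genes, and after quantile normalization 7 had one (18.4%), against 11.3% of all genes.

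The direction of replicate 3 among the 23 called genes depended on the scaling. As deposited, it was the highest array for 9 and the lowest for 11, whereas over all called genes it was the highest for 63.2% and the lowest for 27.2%. Its median difference from the mean of the others was -0.02 for the 23 and 0.26 for all called genes. Quantile normalization gives the arrays the same distribution of values. Under that normalization replicate 3 was the highest array for 4 of the 23 and the lowest for 16, against 34.9% and 53.7% of all called genes. It was below the mean of the others for 18 of the 23, against 13 as deposited, with a median difference of -0.45, against -0.12 for all called genes. Fzd6 (2.00), Fzd10 (0.37), Wnt6 (0.33), Wnt10a (0.23) and Wnt7b (0.05) were still higher on replicate 3. The differences of Wnt4, Wnt11, Lrp5, Porcn and Sfrp1 changed sign, to -0.08, -0.04, -0.09, -0.08 and -0.33. Wnt2b (-1.35), Sfrp5 (-1.53), Ror2 (-1.05) and Fzd1 (-0.99) were lower with either scaling. As deposited, 7 of 10 dermal mesenchyme markers were lowest and 5 of 7 basal epithelial markers highest on replicate 3. After quantile normalization these counts were 9 of 10 and 2 of 7, and 4 of the 7 basal markers (Krt5, Krt14, Itgb4 and Cdh3) were below the mean of the others. The part of either list in the differences of the Wnt genes was not tested.

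**Figure D3:**
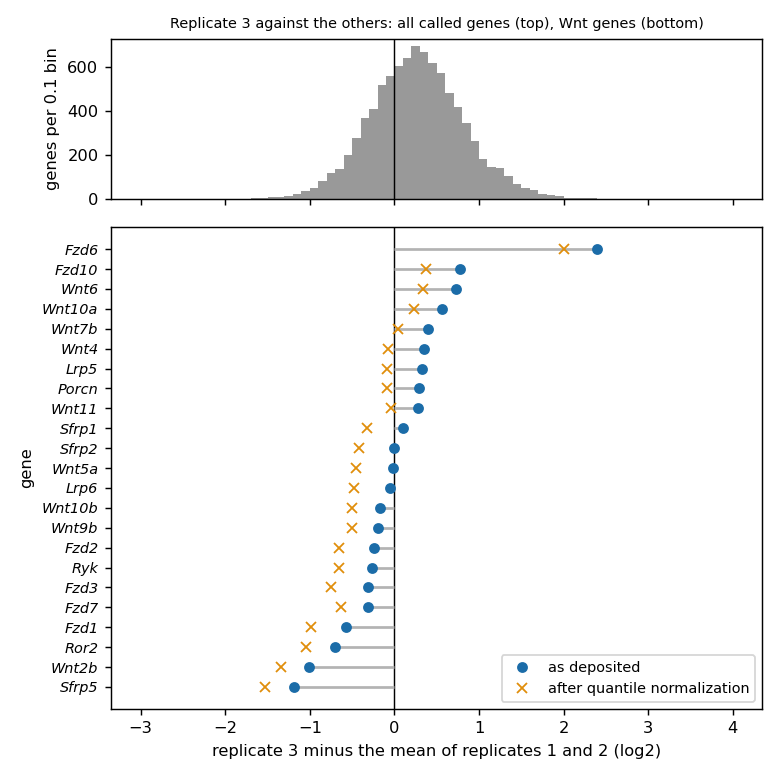
Replicate 3 minus the mean of replicates 1 and 2, in log2 units, for all 8955 genes above background (top, number of genes per bin of 0.1, with values beyond the axis in the end bins) and for the 23 called genes named here (bottom, circles as deposited, crosses after quantile normalization). As deposited, the bulk of all genes lies right of 0 and the 23 lie on both sides, from -1.19 (Sfrp5) to 2.40 (Fzd6), while 18 of the 23 crosses lie left of 0.

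Probe sets of the same gene often put replicate 3 on opposite sides of the other arrays. Of the 9 members with at least 2 probe sets above the receptor-gene threshold on average, 8 had one probe set higher and another lower on replicate 3 than the mean of replicates 1 and 2, namely Fzd2, Fzd3, Fzd6, Fzd7, Ryk, Sfrp5, Wnt4 and Wnt5a. Over all genes with several such probe sets this was 39.2%. After median centring the count was 7 of 9 against 47.5%, and after quantile normalization 6 of 9 against 49.1%. A gene with more probe sets has more chances to be counted, and Fzd3 had 5 and Fzd2 had 3. With a difference of at least 0.5 in both directions, 1 of the 9 was left (Fzd6), against 5.28% of all genes. This comparison was chosen after the values were seen.

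The disagreement was widest in Fzd6, Fzd7, Fzd3 and Sfrp5. For Fzd6 the differences of the probe sets were 2.40 and -0.68, for Fzd7 -0.32 and 1.49, and for Sfrp5 -1.19 and 0.22. In Fzd3 the probe set used lay 0.32 lower on replicate 3, while its 4 other probe sets above the threshold were 0.88 to 1.28 higher. The difference of replicate 3 in these genes therefore depended on the probe set. In Wnt7b both probe sets were higher on replicate 3, by 0.40 and 1.25.

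**Figure D4:**
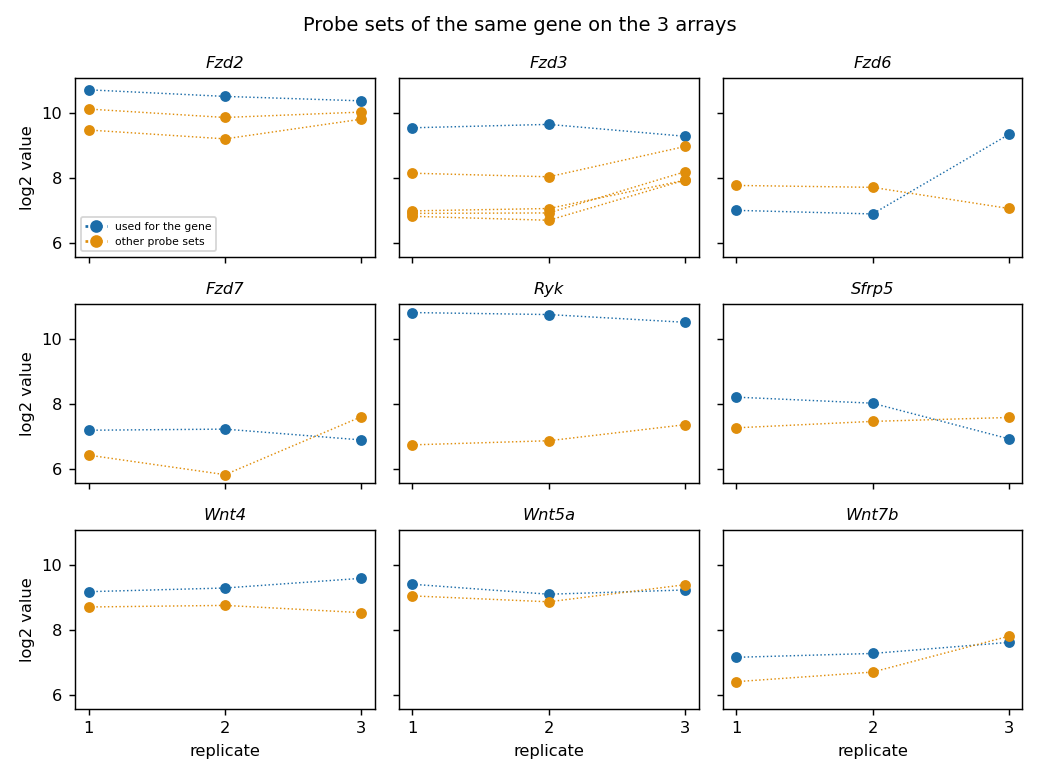
Log2 values on the 3 arrays (horizontal axis, replicate; dotted lines join the values of 1 probe set) for the 9 genes with at least 2 probe sets above the receptor-gene threshold, with the probe set used for the gene in blue and the others in orange. In Fzd6 the probe sets cross between replicates 2 and 3, and in Wnt7b both are highest on replicate 3.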

How the data were processed

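The authors deposited log2 values for 45141 probe sets, made with RMA and the affy package, per the submitters' processing notes, which give no versions or settings. RMA summarises probes and compresses weak signals. Sorted values matched closely between replicates 1 and 2 but not with replicate 3, so joint normalization of the arrays is in doubt. Per the labels' protocols, cDNA was amplified for 25 cycles, which can change relative levels. Of the probe sets, 28898 had 1 gene in the platform annotation, 551 had several, 15588 had no listed gene and 104 were controls; only those with 1 gene were used. The array threshold was subtracted and the mean set against 0 by an intercept model in limma 3.58.1 (R 4.3.3) with trended empirical Bayes variances. This p leaves out the uncertainty of the threshold and rests on 3 arrays, whose number limits the precision.

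The members and lists were chosen with earlier results of these data known. Every member was named; of each role of the other pathway genes, the first 3 called and the first 2 others in list order were named. Marker genes and the remaining names were examples chosen after their values were seen. The 12 alternatives set at the start, and 2 kinds added after seeing the data (receptor pseudogenes left out, and a replicate left out with each gene's probe set kept), concern thresholds, background genes, probe sets, normalization, the fit, a filter on low genes and each replicate. The steps were tested on simulated data. Promoters, gene order and motifs were read with Python 3.11.15 and pandas 2.3.3, and matplotlib 3.10.9 drew the plots. Coordinates are those of the RefSeq promoter table, since no build was named for the arrays.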

Additional observations from a re-analysis of the deposited data

How the results depend on the processing

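The number of genes above background depended on the threshold. With tissue-restricted genes as background, 5210 of all genes, 10 of the 38 members, 2 ligand, 3 Frizzled and 3 co-receptor or Porcn genes were called, and with the brightest antigenomic control 5399, 10, 2, 3 and 3. Under the tissue-restricted threshold the means of Wnt7b, Wnt9b, Wnt10a, Wnt10b, Wnt11 and Fzd7 were -0.027, -0.30, -0.37, -0.17, -0.33 and -0.28, and those of Notum, Kremen1 and Dvl1 were -0.36, -0.45 and -0.19. Under the antigenomic control these 9 values were -0.031, -0.31, -0.37, -0.17, -0.34, -0.28, -0.37, -0.45 and -0.19. In both cases the cause is the construction, a higher threshold. All 23 called members were called again under quantile normalization, median centring, no trend, the filter on low genes and without each replicate in turn, in which the probe set with the highest mean changed for Sfrp5 (without replicate 1) and Fzd6 (without replicate 3). With each gene's probe set kept, an alternative added after seeing the data, all 23 were called again too. Fits on 2 arrays gave many far smaller adjusted p-values than the fit on 3. For Fzd2 it was 4.83e-42 without replicate 2 (probe set kept), against 9.81e-06. Calls with a replicate left out are therefore not a stricter check. Without probe sets of types x, s and a, 34 members were measured and 21 called, 9 of them at the stricter threshold. Ryk, then represented by its second probe set, lay 0.82 above the receptor-gene threshold. A range of at least 1 was found in 3 members with the mean of each gene's probe sets, in 3 without probe sets of types x, s and a, in 1 at a range of at least 1.5, and in 0 to 4 when 1 replicate was left out, against 5. Leaving out 1 replicate gave 24 members, and 10 to 14 at the stricter threshold. The other counts stayed within 1.5 times their value (118 of 133 comparisons of counts). No paired analysis was possible because there was 1 group.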
